A study of Arabidopsis thaliana with 8 samples.

Results

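The 9 Arabidopsis genes analysed here, out of 32548 measured by RNA sequencing, encode TAF and TRA1 subunits at the core of the SAGA coactivator complex. The genes were taken by locus, as named subunits, and no level or fold change entered the rule: TAF5 (AT5G25150), TAF6 (AT1G04950, listed by RefSeq as TAFII59), TAF6B (AT1G54360), TAF9 (AT1G54140), TAF10 (AT4G31720), TAF12 (AT3G10070), TAF12B (AT1G17440, RefSeq symbol EER4), TRA1A (AT2G17930) and TRA1B (AT4G36080). Earlier results of these data were, however, known when these genes were chosen. RNA came from whole seedlings at 12 days of age, kept on plates at 22 °C in a cycle of 16 h light and 8 h darkness. Wild type Col-0 plants, hag1 plants and ada2b plants, each mutant in 1 SAGA gene, and scs1 scs2a plants, mutant in both named genes, were represented by 2 libraries per genotype. The labels give each mutant genotype as homozygous and name no alleles, and they do not say whether a library came from pooled plants or a separate culture, so p-values measure a spread between libraries that may be technical.

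SAGA carries separate modules around a structural core, and the core holds a set of TBP-associated factors, or TAFs, that yeast and animals also build into the general transcription factor TFIID. Several of these TAFs contain histone folds and assemble as heterodimers, such as TAF6 with TAF9. The TRA1 protein, called TRRAP in animals, is a very large relative of phosphatidylinositol kinases without kinase activity. In yeast it is the surface that activators contact, and it is shared with the acetyltransferase complex NuA4. HAG1, the plant GCN5 acetyltransferase, and its adaptor ADA2B belong to a different module, so the comparisons below ask how transcripts of the core behaved when other SAGA genes were mutated.

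Library totals ran from 20570967 to 22344725 normalised counts, and by the spacing of low values 1 read was worth 0.952 to 1.09. Counting error alone was 1.79 to 7% of a member's value. HAG1 stood at 131 and 133 in the hag1 libraries and at 296 and 328 in wild type. ADA2B stood at 567 and 613 in ada2b and at 708 and 711 in wild type, so its transcript was a weak check of that label. The loci mutated in the double mutant were not checked here. Leaf and root markers were present in every library, with summed values of 499200 to 737600 for 6 leaf markers and 44420 to 84660 for 6 root markers, and no marker was at 0.

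All 9 genes passed the filter on low values. Mean levels over the 8 libraries ran from 249 for TAF9 to 2698 for TRA1A, which put the members between the 51st and the 94.2nd percentile of the 25459 genes tested. Lengths differ widely, since the coding length in the TAIR10.1 annotation is 405 bases for TAF10 and 11577 for TRA1A. Per kb of coding length, the wild type level of TAF10, a histone-fold TAF also known for a role in salt tolerance, was 1472 ± 13.9 (SD, n = 2). TAF6B followed at 559 ± 5.1, TAF12B at 454 ± 12.4, TAF9 at 399.9 ± 2.55 and TAF6 at 360.3 ± 11.2. Lower levels per kb were those of TAF5 at 237 ± 10.2, TAF12 at 225 ± 11.8, TRA1A at 208 ± 4.04 and TRA1B at 89.4 ± 7.87. Neighbours in this order did not overlap in wild type, except for TAF5 and TAF12, whose libraries interleaved. The place of TAF10 depended on the length used, because its annotated exons, over 3 transcript models, span 1476 bases. Per kb of exon its wild type level was 404 ± 3.82, below the 488 ± 4.46 of TAF6B. Other places changed on that scale too. TRA1A at 198 ± 3.86 stood above TAF12 at 185 ± 9.76 and TAF5 at 182 ± 7.84. The libraries of TAF9 (252.0 ± 1.61) and TAF6 (251.6 ± 7.79) overlapped there. TRA1A had the highest level per gene and TRA1B the lowest level per length.

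**Figure D1:**
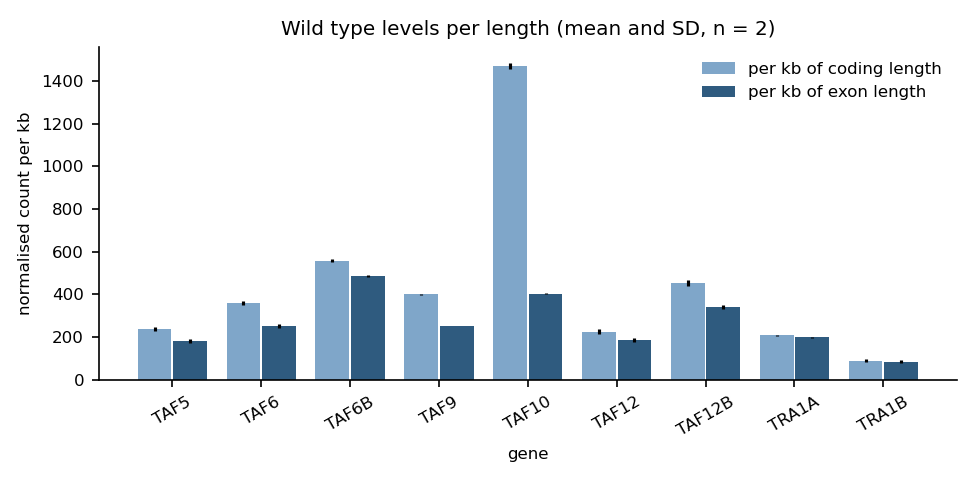
Wild type levels of the 9 genes as normalised counts per kb of coding length (light bars) and of exon length (dark bars), with SD over 2 libraries. TAF10 stands at 1472 per kb of coding length and 404 per kb of exon length, and TRA1B is at the bottom on both scales.

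Few stretches of the near copies were identical. Of the 50-base windows within exons of TAF5, TAF6, TAF6B, TAF9, TAF10, TAF12 and TAF12B, 0 had an exact copy elsewhere in the genome. TRA1A and TRA1B shared 56 windows, 0.54% of each gene. Exons of 6 members overlap those of a gene on the other strand, over 28 to 174 bases, and whether the counting used strand is not given in the sources used here. The genes that overlap TAF10 and TAF12B did not pass limma's test in any mutant. Those that overlap TAF6, TAF6B, TAF9 and TAF12 passed in at least 1 mutant, and their values are given with the results of these members.

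In ada2b, 5 of the 9 genes rose, by 1.21-fold to 1.31-fold, and 0 fell. They were both TRA1 genes, TAF6 and TAF6B, and TAF9, the histone-fold partner of TAF6. TAF5, TAF10, TAF12 and TAF12B did not pass the test. Over all genes tested 24.7% rose and 23.4% fell in ada2b, and of the 16247 genes whose mean was at least 100, a level that every member exceeds, 34.9% rose. The median log2 fold change was 0.27 for the 9 members, 0.03 for all genes and 0.11 for those with a mean of 100 or more.

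TRA1A stood at 2371 and 2437 in wild type and at 2991 and 3029.65 in ada2b. The groups lay well apart, and the log2 fold change was 0.32 ± 0.05 (SE, limma adjusted p = 0.000974). TRA1B stood at 965 and 1093 in wild type and at 1279 and 1405 in ada2b, again without overlap, with a log2 fold change of 0.38 ± 0.08 (adjusted p = 0.00534). TRA1A and TRA1B were thus both above wild type in both ada2b libraries. Among the histone-fold TAFs, TAF6, which RefSeq also lists under an embryo-defective mutant name, went from 608 and 582 to 742 and 763. Both ada2b libraries were above both wild type libraries, and the log2 fold change was 0.34 ± 0.06 (adjusted p = 0.00174). TAF6B went from 913 and 901 to 1155 and 1209, with a log2 fold change of 0.38 ± 0.05 (adjusted p = 0.000601). These 4 calls held under each of 17 alternatives in processing, though none of the changes reached 1.5-fold.

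TAF9 had 222 and 219.8 in wild type and 255 and 278 in ada2b, a log2 fold change of 0.27 ± 0.09 (adjusted p = 0.0342). This call was less secure. Leaving out a library ended it in 3 cases, with an adjusted p of 0.101 without the first wild type library, 0.115 without the second and 0.173 without ada2b replicate 2. It also ended with median-ratio scaling (0.0704) or upper-quartile scaling (0.0922), and when the fit held ada2b and wild type alone (0.0573). TAF5, a WD40-repeat protein that scaffolds the other TAFs, had 491 and 462 in wild type and 562 and 524 in ada2b. The libraries did not overlap, but the log2 fold change of 0.19 (95% interval 0.02 to 0.35) missed the threshold (adjusted p = 0.0595). TAF12B, which was also isolated in screens for ethylene and cytokinin responses, behaved alike, with 913 and 949 against 1083 and 1000.35 and a log2 fold change of 0.16 (interval 0.02 to 0.3, adjusted p = 0.0607). Both passed when values were scaled to the library total (adjusted p = 0.0216 for TAF5 and 0.0251 for TAF12B).

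TAF10 and TAF12 showed small differences in ada2b. TAF10 stood at 600.1 and 592 in wild type and 602 and 631 in ada2b, a log2 fold change of 0.05 (interval -0.12 to 0.21, adjusted p = 0.612). TAF12, which pairs with TAF4 in TFIID and with ADA1 in yeast SAGA, stood at 350.3 and 377 in wild type and 361 and 369.8 in ada2b. Its log2 fold change was 0.01 (interval -0.24 to 0.25, adjusted p = 0.964). Median-ratio and upper-quartile scaling gave both genes log2 fold changes below 0. Whole seedlings were sampled, so fewer cells of a type and less RNA per cell cannot be told apart. In ada2b, 5 of 6 dividing cell markers fell, and their summed value was 1248 and 1339 against 1833 and 1826 in wild type. Of the 6 leaf markers 3 fell, LHCA1, PSAL and PSBO1. The sum over all 6 was 620500 and 623900 in ada2b, against 737600 and 698500 in wild type. The fall was uneven, with LHCA1 and PSAL at 48.2 and 49.6% of wild type and the others at 78.49 to 98.55%. The part of these markers in the rise of the TAF and TRA1 transcripts was not tested. Among the genes on the other strand, AT1G54370 shares 174 exon bases with TAF6B and rose from 694 to 909 in ada2b (log2 fold change 0.38, adjusted p = 0.00932). In hag1, where TAF6B also passed, AT1G54370 stood at 679 (log2 fold change -0.03, adjusted p = 0.813). AT1G54130, which shares 44 exon bases with TAF9, fell in ada2b where TAF9 rose (log2 fold change -0.27, adjusted p = 0.028). AT1G04945, which shares 28 exon bases with TAF6, had a log2 fold change of -0.06 in ada2b (adjusted p = 0.442). It fell in hag1 (-0.47, adjusted p = 0.000288) and in scs1 scs2a (-0.23, adjusted p = 0.0245), where TAF6 did not pass.

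**Figure D2:**
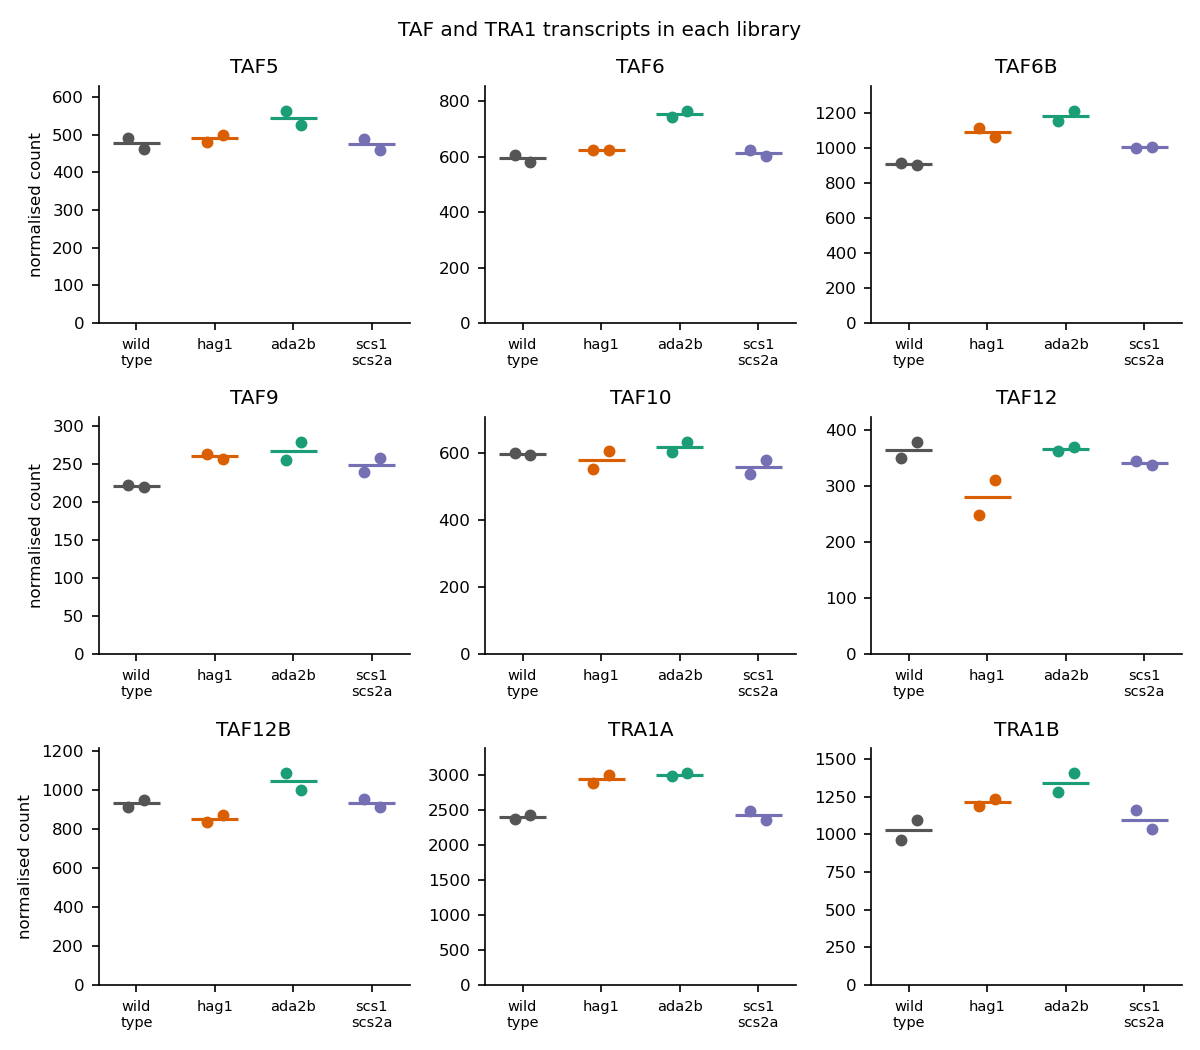
Normalised counts of the 9 genes in each of 8 libraries (points) with the genotype mean (line, n = 2), on axes that start at 0. For every gene but TAF12 both ada2b libraries lie above both wild type libraries, also for TAF5, TAF10 and TAF12B, which did not pass. How many of all genes separate so was not counted. For TAF12 both hag1 libraries lie below all others.

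In hag1, 3 of the 9 genes rose and 1 fell. TRA1A, TRA1B and TAF6B rose by 1.18-fold to 1.22-fold, and TAF12 fell to 0.764 of its wild type level. Over all genes tested 21.3% rose and 23% fell, and 27.4% of those with a mean of at least 100 rose, so 3 of 9 was close to the share of genes at large. The median log2 fold change of the members was 0.07, against 0.02 for genes with a mean of 100 or more. This comparison and that of ada2b share the wild type libraries.

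TRA1A stood at 2889 and 3003 in hag1, above its wild type values of 2371 and 2437, and the change on the log2 scale was 0.29 ± 0.05 (SE, adjusted p = 0.00168 by limma). TAF6B stood at 1117 and 1063 in hag1 against 913 and 901, a log2 fold change of 0.26 ± 0.05 (adjusted p = 0.00405). Both calls held under the 17 alternatives. TRA1B stood at 1192 and 1236 against 965 and 1093, a log2 fold change of 0.24 ± 0.08 (adjusted p = 0.0431). It no longer passed without wild type replicate 1 (log2 fold change 0.15, adjusted p = 0.242), hag1 replicate 1 (0.0928) or hag1 replicate 2 (0.156). The call also ended with median-ratio scaling (0.0594), upper-quartile scaling (0.0599), no filter (0.133), no trend (0.115), a replicate block (0.0523) or only hag1 and wild type in the fit (0.0518).

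TAF12 was at 249 and 309.9 in hag1 and at 350.3 and 377 in wild type. The hag1 libraries lay below every other library and differed from each other by more than the libraries of any other genotype did for this gene. The log2 fold change was -0.39 ± 0.11 (adjusted p = 0.0179). Without hag1 replicate 1 it was -0.23 (adjusted p = 0.0915), and the call also ended without wild type replicate 2 (0.0919), with no filter on low values (0.0637) or with only hag1 and wild type in the fit (0.0569). The exons of TAF12 share 135 bases with AT3G10060 on the other strand, which fell from 2170.1 in wild type to 1355 in hag1 (log2 fold change -0.68, adjusted p = 8.36e-05). AT3G10060 also fell in ada2b (-0.49, adjusted p = 0.00042) and in scs1 scs2a (-0.5, adjusted p = 0.0019), where TAF12 did not pass. Its paralog TAF12B stood at 832 and 871 in hag1, below its wild type libraries at 913 and 949, but the log2 fold change of -0.13 did not pass (interval -0.27 to 0.01, adjusted p = 0.124).

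The other histone-fold TAFs did not pass in hag1. TAF9 stood at 264 and 257 against 222 and 219.8 in wild type, so the libraries did not overlap, with a log2 fold change of 0.24 (interval 0.03 to 0.44, adjusted p = 0.0602). It passed with no filter on low values (0.0413) and with scaling to the library total (0.0331). TAF6 stood at 624 and 624, a log2 fold change of 0.07 (interval -0.06 to 0.2), and TAF5 at 480 and 499.99, one of 0.04 (interval -0.12 to 0.2). TAF10 stood at 551 and 605, a log2 fold change of -0.05 (interval -0.21 to 0.12). In hag1, 3 of 6 dividing cell markers rose and 5 of 6 leaf markers fell. Of the 6 root markers 1 rose, PYK10, and 1 fell, TIP2;3 (log2 fold change -2.45, limma adjusted p = 2.42e-05). TIP2;3 was not particular to hag1, since it also fell in ada2b (-2.43, adjusted p = 1.81e-05) and in scs1 scs2a (-1.15, adjusted p = 0.00324). The root marker sum was 84660 in hag1 replicate 1 and 65080 in hag1 replicate 2, against 45740 and 44420 in wild type. PYK10 alone made up most of that sum, at 82448 and 63579 in hag1 and at 43806 and 42260 in wild type. The part of these markers in the TAF and TRA1 values was not tested.

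In scs1 scs2a, 0 of the 9 genes passed limma's test, and 1 of them, TAF6B, had an unadjusted p under 0.05. Over all genes 7.86% rose and 12.1% fell, and 10.7% of those with a mean of at least 100 rose. Of all genes called, 39.4% were higher, a share that became 65.2% when values were scaled to the library total. TAF6B stood at 999 and 1007 against 913 and 901 in wild type, a log2 fold change of 0.14 (interval 0.02 to 0.27, adjusted p = 0.093), and it passed only with scaling to the library total (log2 fold change 0.24, adjusted p = 0.0142). TRA1A, at 2496 and 2365, overlapped wild type and had a log2 fold change of 0.02 (interval -0.1 to 0.13). TRA1B, at 1159 and 1037, also overlapped, with 0.09 (interval -0.1 to 0.28). TAF9 stood at 239 and 258, above both wild type libraries, with a log2 fold change of 0.17 (interval -0.03 to 0.37, adjusted p = 0.219).

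The remaining members had log2 fold changes from -0.1 for TAF10 to 0.04 for TAF6 in scs1 scs2a. TAF10 stood at 537 and 578 and TAF12 at 344 and 337, both below their wild type libraries, with intervals of -0.26 to 0.07 and -0.34 to 0.15. TAF5 at 489.6 and 459, TAF6 at 626 and 601 and TAF12B at 953 and 909 all overlapped wild type. The upper ends of the 9 intervals lay between 0.07 and 0.37 on the log2 scale, so a rise of 1.5-fold lay outside all of them. Scaling to the library total moved TAF5, TAF10, TAF12 and TAF12B from below to above 0. In this mutant 3 of 6 leaf markers fell, LHCA1, PSAL and PSBO1, and 0 of 6 dividing cell markers passed. Of the 6 root markers 1 rose and 1 fell, the latter TIP2;3. The part of these markers in the TAF and TRA1 values was not tested.

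**Figure D3:**
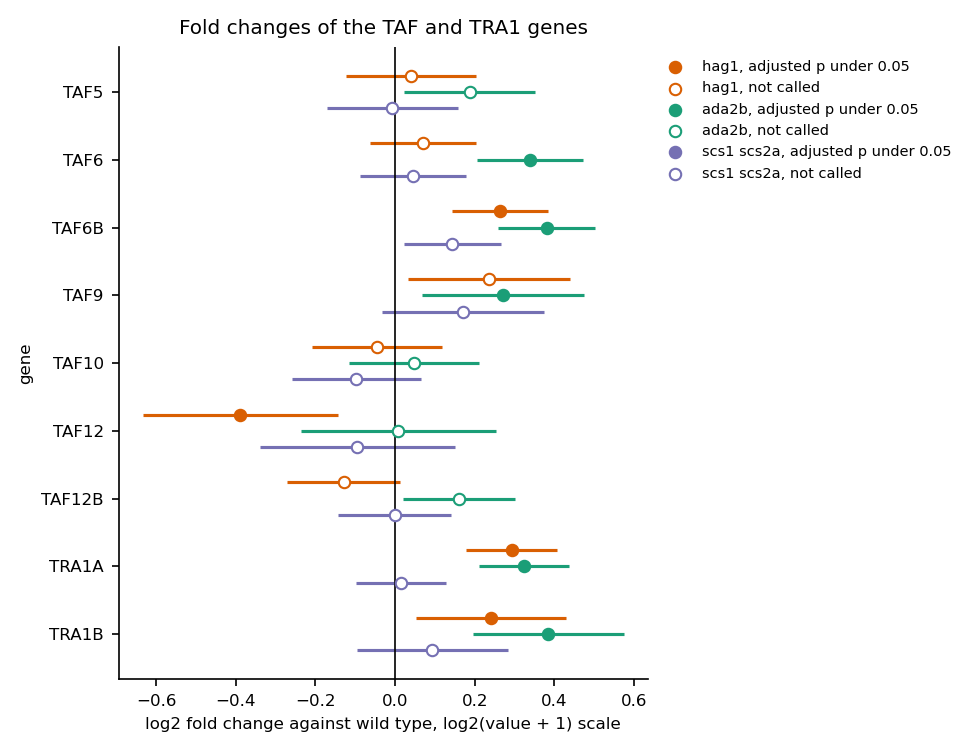
Log2 fold change of each gene in hag1, ada2b and scs1 scs2a against wild type, with 95% intervals from limma; filled points passed an adjusted p of 0.05. The ada2b points of TAF6, TAF6B, TAF9, TRA1A and TRA1B are filled to the right of 0, and the hag1 point of TAF12 is filled to its left, at -0.39.

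Direct comparison of the mutants showed where their TAF and TRA1 levels differed. Between ada2b and hag1, 21.6% of all genes were higher in ada2b and 21.2% lower. Of genes with a mean of 100 or more, 29.8% were higher. Close to that share, 3 of the 9 members were higher in ada2b, and 0 were lower. They were TAF12 (log2 difference 0.4 ± 0.11, limma adjusted p = 0.0172), TAF12B (0.29 ± 0.06, adjusted p = 0.00596) and TAF6 (0.27 ± 0.06, adjusted p = 0.0063). TRA1A did not differ beyond its spread between ada2b and hag1 (0.03, interval -0.08 to 0.14), nor did TAF9 (0.03, interval -0.17 to 0.24), TRA1B (0.14, interval -0.05 to 0.33) or TAF6B (0.12, interval 0 to 0.24, adjusted p = 0.108). The TAF12 call ended without hag1 replicate 1 (log2 difference 0.24, adjusted p = 0.0839), ada2b replicate 1 (0.0608) or ada2b replicate 2 (0.0768), or with no filter (0.0637).

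Between scs1 scs2a and ada2b, 4 of 9 genes were lower in scs1 scs2a and 0 higher, where 14.8% of all genes were higher and 14.9% lower, and 22.2% of genes with a mean of 100 or more were lower. Of all genes called here 49.9% were higher, against 59.5% with median-ratio scaling, 70.9% with upper-quartile scaling and 62.9% with scaling to the library total. The 4 were TRA1A (log2 difference -0.31 ± 0.05, adjusted p = 0.00311), TAF6 (-0.29 ± 0.06, adjusted p = 0.0074), TAF6B (-0.24 ± 0.05, adjusted p = 0.0125) and TRA1B (-0.29 ± 0.08, adjusted p = 0.0304). TAF6 and TRA1A kept their call in each of the 17 alternatives. TAF6B lost it without ada2b replicate 2 (adjusted p = 0.0757), scs1 scs2a replicate 1 (0.0636) or scs1 scs2a replicate 2 (0.0543), with upper-quartile scaling (0.0718) or with no trend (0.0503). TRA1B lost it without ada2b replicate 2 (0.167) or scs1 scs2a replicate 2 (0.175), under all 3 scalings (0.0588 to 0.111), with no filter (0.112) and with no trend (0.0985).

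Between scs1 scs2a and hag1, 15.2% of all genes were higher and 14.9% lower, and of those called 50.5% were higher, against 62.4% with scaling to the library total. Of genes with a mean of 100 or more, 18.9% were higher and 19.3% lower. TRA1A was lower in scs1 scs2a (log2 difference -0.28 ± 0.05, adjusted p = 0.0043), in each of the 17 alternatives too, and no other member passed. TAF12 was next, at 0.29 ± 0.11 higher in scs1 scs2a (adjusted p = 0.0706), and it passed without hag1 replicate 2 (0.45, adjusted p = 0.0157), with upper-quartile scaling (0.046) and with scaling to the library total (0.0477). Ordered by mean, TRA1A thus ran from wild type through scs1 scs2a and hag1 to ada2b, with a called step between scs1 scs2a and hag1 and none between the neighbours on either side. TAF6 ran in the same order, and its called step lay between hag1 and ada2b. TAF12 ran from hag1 through scs1 scs2a and wild type to ada2b, and no step between neighbours passed.

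The balance within each set of paralogs was compared as the log2 ratio of the copies within a library, in which length cancels between libraries. The share of TAF6 in the TAF6 and TAF6B total was 35.8 to 37% in hag1 and 37.4 to 38.5% in scs1 scs2a. It was 38.7 to 39.1% in ada2b, and 39.2 to 40% in the wild type libraries. The mean log2 ratio was -0.61 ± 0.03 in wild type and -0.8 ± 0.05 in hag1 (SD, n = 2), and all hag1 values lay below those of the other genotypes. An exact permutation test of the difference among the 4 genotypes gave p = 0.00952, the smallest that its assignments allow, and 0.0286 adjusted over the 3 sets. That call ended without any 1 of 7 libraries, all but hag1 replicate 2. It also ended with assignments kept within replicate numbers (exact permutation p = 0.0417, adjusted 0.0625). There 0.0417 was the smallest p allowed, so after adjustment the call could be kept only if all 3 sets reached it. TAF12 made up 27.7 and 28.4% of the TAF12 and TAF12B total in wild type and 23 and 26.3% in hag1, and the exact permutation p was 0.19 (adjusted 0.286). With assignments kept within replicate numbers, the TAF12 set also reached the smallest exact permutation p, 0.0417 (adjusted 0.0625). TRA1A made up 68.3 to 71.1% of the TRA1 total in all libraries, with an exact permutation p of 0.362 (adjusted 0.362), so no shift between TRA1A and TRA1B was detectable with 8 libraries.

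**Figure D4:**
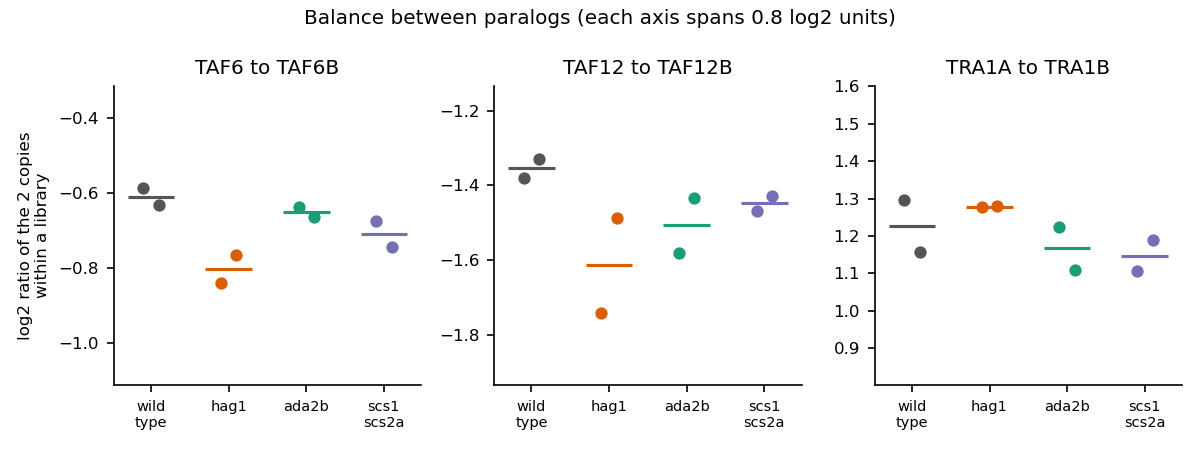
Log2 ratio of the paralogs within each library (points) and the genotype mean (line, n = 2), on axes of equal span. The hag1 libraries are lowest for TAF6 to TAF6B, at -0.84 and -0.77, while the TRA1A to TRA1B ratios of the genotypes overlap between 1.11 and 1.3.

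Other subunits of the complexes that share these proteins were examined beside them. Of 14 further TFIID genes 13 were tested, and 7 rose and 0 fell in ada2b, with a median log2 fold change of 0.2. The lowest adjusted p-values among them were those of TAF11 (0.4 ± 0.08, limma adjusted p = 0.00317), a histone-fold TAF specific to TFIID, TAF2 (0.27 ± 0.06, adjusted p = 0.00566) and TAF4 (0.2 ± 0.05, adjusted p = 0.013). In hag1 2 of the 13 rose, TBP1, a TATA-binding protein, by 0.47 ± 0.06 (adjusted p = 0.000541) and TAF7 by 0.33 ± 0.12 (adjusted p = 0.0458). In scs1 scs2a 1 rose, TAF8, by 0.46 ± 0.12 (adjusted p = 0.0256). The calls of TAF4 in ada2b, TAF7 in hag1 and TAF8 in scs1 scs2a each ended under some alternatives, 3, 13 and 4 of the 17. The further copies TAF1B and TAF4B were low, with wild type values of 6.59 and 9.56 for TAF1B and of 19.6 and 22.4 for TAF4B, and TAF11B was not tested.

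Of 12 further SAGA genes, 7 rose and 1 fell in ada2b (median 0.3). SGF29A, a histone-binding subunit, rose by 0.59 ± 0.1 (adjusted p = 0.00195), SGF11, of the deubiquitination module, by 0.52 ± 0.08 (adjusted p = 0.000935) and HAG1 by 0.41 ± 0.09 (adjusted p = 0.00598), and the gene that fell was ADA2B (-0.27 ± 0.07, adjusted p = 0.0136). In hag1 2 rose, SGF11 by 0.39 ± 0.08 (adjusted p = 0.0042) and UBP22, the ubiquitin protease, by 0.25 ± 0.07 (adjusted p = 0.0193). HAG1 and SPT20 fell there, HAG1 by 1.23 on the log2 scale (adjusted p = 2.92e-05). In scs1 scs2a SGF11 was the 1 gene called, 0.3 ± 0.08 higher (adjusted p = 0.0317). The calls of ADA2B in ada2b, UBP22 in hag1 and SGF11 in scs1 scs2a ended under 3, 3 and 6 of the 17 alternatives.

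Of 13 further NuA4 genes, 4 rose and 0 fell in ada2b (median 0.14), among them the acetyltransferase HAM2 (0.42 ± 0.1, adjusted p = 0.00898), the actin-related ARP4 (0.18 ± 0.06, adjusted p = 0.0242) and EPL1B (0.34 ± 0.11, adjusted p = 0.0297). These calls ended under 1, 6 and 7 of the 17 alternatives. In hag1 YAF9B, listed by RefSeq as TAF14, rose from 35.6 to 87.6 (log2 fold change 1.28 ± 0.21, adjusted p = 0.00127) and ARP4 fell by 0.27 on the log2 scale (adjusted p = 0.00462). In scs1 scs2a 0 of the 13 passed limma's test, and 0 had an unadjusted p under 0.05. Set beside genes with a mean of 100 or more, of which 34.9% rose in ada2b, the shares that rose there were 55.6% of the TAF and TRA1 genes, 53.8% of other TFIID genes, 58.3% of other SAGA genes and 30.8% of other NuA4 genes. Whether any of these shares is particular to its list was not tested.

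**Figure D5:**
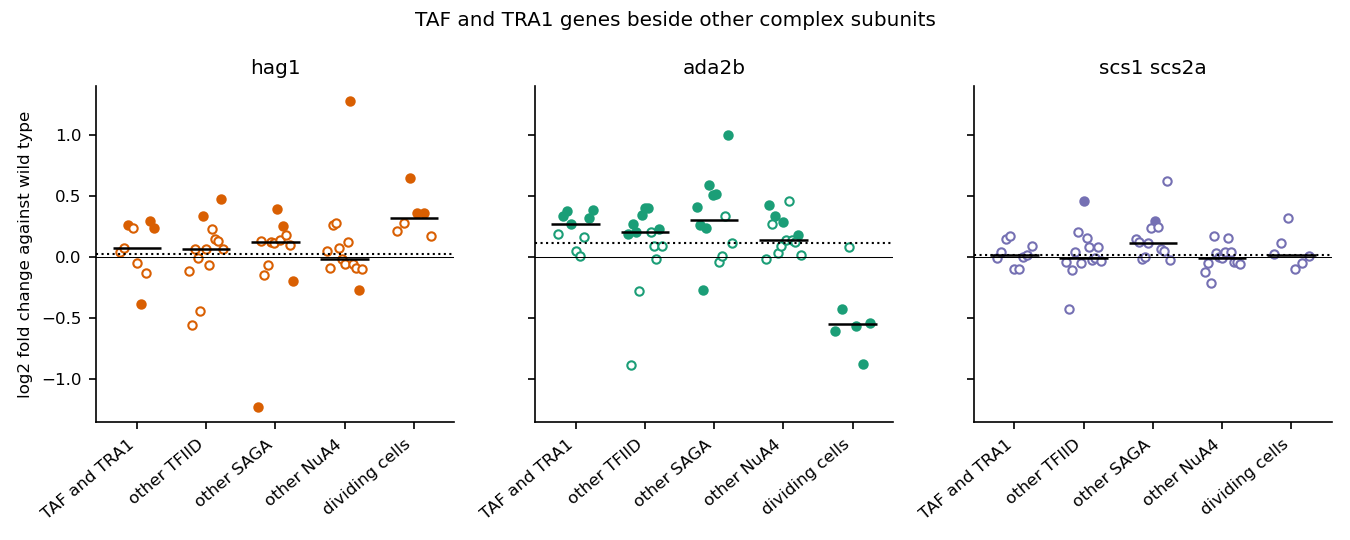
Log2 fold changes against wild type of the 9 genes and of 4 other lists (points, filled where limma's adjusted p was under 0.05), with the median of each list (bar) and of genes with a mean of 100 or more (dotted line). In ada2b the medians are 0.27 for the TAF and TRA1 genes and -0.55 for dividing cell markers; the dotted line lies at 0.11.

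TAF12 had the widest range of genotype means among the members, 0.4 on the log2 scale. Over the 8 libraries and among 16246 other genes with a mean of 100 or more, the genes whose log2 values followed it most closely were CHR18 (AT1G48310, Pearson r = 0.987), AT1G31440 (0.985), AT4G02630 (0.982) and AT1G08900 (0.981). CHR18 had 262 ± 47.7 (SD, n = 2) in hag1, 355 ± 12.2 in scs1 scs2a, 377 ± 23.5 in the wild type libraries and 389 ± 18.8 in ada2b. Each of the 4 was lowest in hag1. These coefficients are a description, since all values come from the same 8 libraries and the genes were picked for their likeness.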

How the data were processed

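Per the labels' protocols, RNA of 8 seedling libraries was read from 1 end over 50 bp. The authors deposited 1 normalised count signal per gene and library, in a table of 32548 genes that is neither whole-numbered nor pooled. HISAT2, edgeR and the TAIR10 build are named in the submitters' processing notes, with no versions, but for the counter, annotation and strand setting nothing is given in the sources used here. No count model was run, because whole reads could not be recovered from the values.

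The limma package (version 3.58.1, R 4.3.3) was fitted to values as log2(value + 1), after keeping the 25459 genes at 1 or more in at least 2 libraries. A single model of genotype over all 8 libraries, with limma's trend, left 4 residual degrees of freedom. Its 6 contrasts were tested two-sided, with Benjamini-Hochberg adjustment over all genes at 0.05. Tested on simulated data, the fit missed some of the larger changes and most of the smaller ones put in, and called almost no unchanged gene. Even the smaller changes put in were larger than any fold change of a member. The simulation changed far fewer genes than were called here, and it gave every gene the same spread beyond counting. Neither rate therefore carries over to these data. All fold changes refer to log2(value + 1), which understates low genes, and intervals cover 95%. Counting error comes from the estimated value of 1 read and covers counting only.

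The members, the other lists and the tests were chosen with earlier results of these data known. Named genes were the members, the targeted genes, up to 3 called genes per other list and mutant by adjusted p, and the 4 genes most like the member with the widest range. Of the dividing cell, root and leaf lists only PYK10, TIP2;3, LHCA1, PSAL and PSBO1 are named. The other markers enter as counts, sums or ranges, also where the rule selected them. TAF1B, TAF4B, TAF11B and SPT20 lie outside that rule; they were picked with their values in view, as were the genes overlapping members. All 32548 identifiers matched RefSeq's TAIR10.1 table. Lengths, overlaps and shared 50-base windows came from that assembly and no coordinates or sequences are printed, since the builds differ by name. The spread within a genotype was 4.1 to 6.19 times the variance of counting, and no library was merged with another. No deposited column went unused.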

Additional observations from a re-analysis of the deposited data

How the results depend on the processing

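Of the 17 calls on members over 6 comparisons, 11 held in all of 17 alternatives and 6 ended in some; no called member changed direction. With a minimum of 1.5-fold, 0 members were called in any comparison, and the other TFIID, SAGA, NuA4, dividing cell and leaf lists kept 0, 3, 1, 3 and 6 of their 10, 13, 6, 8 and 11 calls against wild type. With hag1 and wild type alone in the fit, 2 of 4 members were called in hag1. With no trend, 2 of 4 members were called between scs1 scs2a and ada2b and 3 NuA4 calls were made. With no filter there were 6 leaf calls. Upper-quartile scaling gave 2 calls each between scs1 scs2a and hag1 and between scs1 scs2a and ada2b, 5 TFIID and 3 NuA4 calls. Median-ratio scaling gave 6 and 3. Scaling to the library total, chosen after seeing the data, gave 1 call in scs1 scs2a and 2 between scs1 scs2a and hag1. Causes of these shifts were not tested.

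Reversals concerned uncalled values near 0. Against wild type in ada2b, TAF10 was -0.001 and TAF12 -0.041 with median-ratio scaling and -0.021 and -0.06 with upper-quartile scaling. In scs1 scs2a, TAF5, TAF12B and ADA2B were 0.011, 0.018 and 0.002 with upper-quartile scaling, and TAF5, TAF10, TAF12, TAF12B and ADA2B were 0.092, 0.003, 0.005, 0.099 and 0.083 with scaling to the total. Between ada2b and hag1, TRA1A was -0.001 with median-ratio scaling, and TRA1A and TAF9 were -0.016 and -0.013 with upper-quartile scaling. Between scs1 scs2a and hag1, TAF6 was 0.013 with upper-quartile scaling, and TAF5, TAF6 and TAF10 were 0.012, 0.033 and 0.008 with scaling to the total.

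Leaving out 1 library at a time gave 2 to 4 member calls in hag1, 1 to 2 between scs1 scs2a and hag1, and 2 to 4 between scs1 scs2a and ada2b. The ranges were 4 to 8 for TFIID, 7 to 12 for SAGA, 2 to 9 for NuA4, 5 to 10 for root and 7 to 11 for leaf calls. The lone library of a genotype was then assumed to vary like the others. Uncalled values that crossed 0 ranged from -0.004 to 0.084 (TAF5) and -0.114 to 0.021 (TAF10) in hag1, and from -0.046 to 0.061 (TAF12) in ada2b. In scs1 scs2a they ranged from -0.054 to 0.039 (TAF5), -0.035 to 0.034 (TAF12B), -0.024 to 0.054 (TRA1A) and -0.035 to 0.002 (ADA2B). Between ada2b and hag1 TAF9 ranged from -0.028 to 0.097, and between scs1 scs2a and hag1 TAF6 from -0.054 to 0.003 and TAF10 from -0.118 to 0.017. The exact p of the TAF6 to TAF6B balance ranged from 0.00952 to 0.105.

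The labels do not say whether libraries with the same replicate number were grown or processed together. Deviations of same-numbered libraries correlated at -0.147 to 0.233. A replicate block ended the TRA1B call in hag1 (limma adjusted p = 0.0523). It gave the TAF6 balance, and the TAF12 balance too, an exact permutation p of 0.0417, the smallest that its assignments allow, adjusted 0.0625. It changed no other call on a member. Counting error of 1.79 to 7% per value is only a part of the spread that limits what 2 libraries a genotype can show. Averaged over genes above a minimum level, the spread within a genotype was 4.1 to 6.19 times the counting variance.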
